A study of Mus musculus with 8 samples.

Results

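The genes described here are the protein-coding genes of the deposited table whose symbols name a protein of the cytosolic ribosome. They were chosen by symbol (Rps or Rpl with a number, plus Rpsa, Rplp0, Rplp1 and Rplp2, without the Rps6k kinases), which gave 84 of 54532 genes. Of these, 32 carry small subunit names and 52 carry large subunit names. A filter of a mean of at least 1 FPKM (fragments scaled by gene length and library total) over the 8 libraries left 81 of them among 13029 genes tested. Rpl36al, Rpl39l and Rpl10l fell below it. Fau and Rack1, which also encode proteins of the cytosolic ribosome, lie outside the symbol rule and are given with the related genes.

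RNA came from whole mouse hearts taken at postnatal day 4, in 4 libraries per group that the series calls biological replicates. Control hearts were of genotype Mrps5 fl/+, with 1 floxed and 1 intact allele of Mrps5 and no Cre. Hearts called cHET were littermates of genotype Mrps5 fl/+;Myh6-Cre, in which Cre under the promoter of the cardiomyocyte gene Myh6 removes the floxed allele late in embryonic life. Mrps5 encodes a protein of the mitochondrial ribosome, not of the cytosolic one. Other heart cells keep both alleles, and hearts with Cre and 2 intact alleles were not analysed here, so that effects of Cre and of the lost allele cannot be told apart. The comparison asks how the transcriptome of the newborn heart differs when cardiomyocytes carry a single intact Mrps5 allele.

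The cytosolic ribosome is built from a small subunit, which decodes the mRNA, and a large subunit, which joins the amino acids. Most of its proteins are needed in equal numbers, and their genes are known for high and similar transcript levels in growing tissue. Many of these mRNAs begin with a run of pyrimidines, the terminal oligopyrimidine motif, through which mTORC1 and LARP1 control their translation and stability.

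Before any comparison, several libraries stood apart from the others of their group. Depth was 15490622 to 19234777 reads per library as rebuilt from the FPKM values. The cardiomyocyte markers Myh6, Actc1, Tnnt2, Tnni3, Ryr2 and Myl2 were present in every library and summed to 14403 to 17712 FPKM. Ucp1, the uncoupling protein of brown fat, stood at 17.8 and 16.7 FPKM in control 1 and control 2 and at 6.56 in cHET 2, and did not exceed 1.62 in the remaining 5. The red cell gene Hba-a1 was highest in control 2 (3643 FPKM), and the atrial gene Sln was lowest in cHET 3 (1.37 FPKM). By the sex-linked genes Xist and Ddx3y, control 1, control 3 and cHET 1 were called male and the other libraries were not, so the sexes were mixed and not balanced between the groups. The targeted gene Mrps5 averaged 8.27 ± 3.05 FPKM over control hearts and 7.16 ± 0.365 over cHET hearts (SD, n = 4; limma, adjusted p = 0.849), and libraries of both groups overlapped. Control 2 and control 4, at 6.27 and 5.15 FPKM, lay below every cHET library, so that the level of Mrps5 did not separate the labels, and the names of the libraries here follow the labels.

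Ribosomal protein transcripts were among the most abundant of the heart. Their median level was 228 FPKM over the 8 libraries, against 6.99 FPKM for all tested protein-coding genes. Of the 84 genes, 69 had a mean of at least 100 FPKM, 5 lay between 50 and 100, and 10 lay under 50. Only Rplp1 and Rpl36 had a mean above 1000 FPKM over the 8 libraries. Rplp1 (ENSMUSG00000007892, chromosome 9, 61913284 to 61914542, minus strand), a protein of the stalk that recruits translation factors, had 2825, 3163, 1758 and 1384 FPKM in control 1 to 4 and 1859, 1930, 1562 and 1719 in cHET 1 to 4. Its values spread more than 1000 FPKM wide in control and lay close together in cHET. Rpl36 (ENSMUSG00000057863, chromosome 17, 56613416 to 56614243, plus strand) followed, with averages of 1308 ± 393 FPKM over control and 1158 ± 80.3 over cHET hearts (SD, n = 4). Rps15, Rps29 and the stalk protein gene Rplp0 came next, at control means of 994, 1023 and 969 FPKM. The control ranges of neighbouring genes in this order overlapped.

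**Figure D1:**
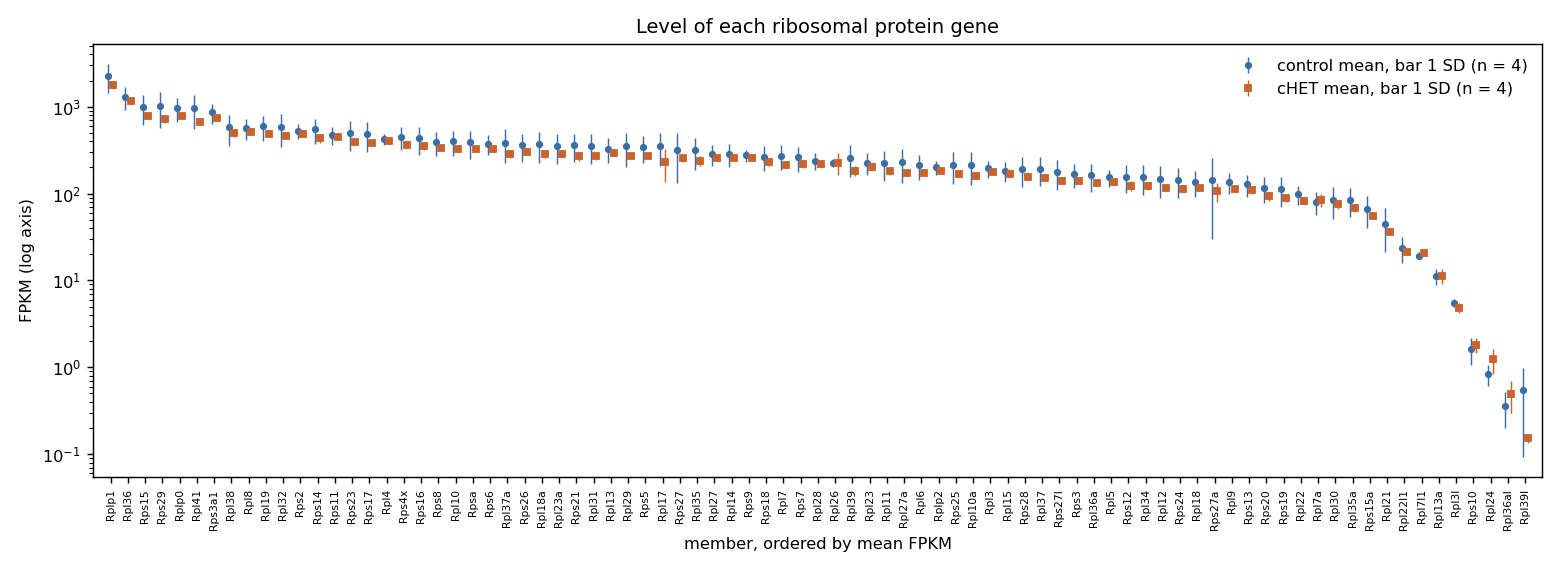
Mean FPKM (log axis) of 83 of the 84 ribosomal protein genes, ordered by their mean over the 8 libraries, with control in blue and cHET in orange; bars show 1 SD (n = 4). Control bars are longer than cHET bars for most genes, the level falls off below 50 FPKM, and Rpl10l is not drawn because it is 0 in every library.

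At the lower end, 5 genes had few reads of their own. Rpl10l (ENSMUSG00000060499, chromosome 12, 66283379 to 66284401, minus strand), a testis copy of Rpl10, had 0 reads in all 8 libraries, which allows up to 0.189 FPKM in a library at a floor of 3 counts. Intervals and floors of this kind cover counting error only. Rpl39l, likewise known from testis, had 2 to 16 reads per library, and Rpl36al had 3 to 18. Rpl39l stood at 0.387, 1.19, 0.152 and 0.441 FPKM in control 1 to 4 and at 0.141, 0.181, 0.150 and 0.139 in cHET 1 to 4. Its highest value was again that of control 2. Rpl24 (9 to 31 reads) and Rps10 (44 to 90 reads), by contrast, encode proteins of every ribosome. Most reads of each gene and its copies together were assigned to the copies, as given further on. For Rpl24 the reads of gene and copies together were few as well.

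The promoters of these genes are shown for the pyrimidine run near their start. The genes varied together from library to library, as given further on, and whether the run goes with that was not tested. RefSeq promoters (GRCm38.p6, 250 bases before to 50 after the start) matched 64 of the 84 genes. A run of at least 8 C or T on the coding strand lay within 20 bases before to 30 after the start in 43 of 64 (67.2%), against 26.5% of 27025 genes with a promoter of the same length. A run in this window need not begin the mRNA, so this is not a count of terminal oligopyrimidine motifs. The lines below give 5 bases before to 25 after the annotated start, 5′ to 3′ on the strand of the gene, with the run in capitals. They cover Rpl27a (chr7:109519190-109519219, plus strand), Rpl15 (chr14:18270962-18270991, minus), Rpl13a (chr7:45128721-45128750, minus), Rpl28 (chr7:4792960-4792989, plus), Rps6 (chr4:86857343-86857372, minus), Rplp2 (chr7:141447646-141447675, plus), Rps24 (chr14:24490673-24490702, plus) and, as an entry without a run in these bases, the muscle gene Rpl3l (chr17:24727821-24727850, plus). Rplp0, Rps4x, Rpl41 and Rpl10, not shown, had no run in these bases either. The bases shown are narrower than the window counted above, so a run may lie outside them.
Rpl27a: gCTCCTCCCTTTTCCCTTTCTgccaccgcc
Rpl15: gCCTTCTTCCTTTCCTCTggcggcagccat
Rpl13a: gacaagaCCTCCTCCTTTCCCaggcggctg
Rpl28: tgTCTCTCTTTCCgtctccggccgccatag
Rps6: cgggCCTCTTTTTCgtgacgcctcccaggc
Rplp2: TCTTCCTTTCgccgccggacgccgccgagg
Rps24: ggTCCTTCCTTgcgcgttgatatgattggt
Rpl3l: gctctgtcatttgacctctggtgcctggtg

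Other letters were searched on both strands over the whole promoter window, and a gene was counted when any of its promoter entries held them. The core of ETS factor sites, CTTCCG, was in 67.2% of the matched genes and in 18.8% of all genes with a promoter. The longer CTTCCGG, which contains it, was in 40.6% and 9.93%. AAGATGG was in 15.6% and 7.28%. TATAAA was in 10.9% and 15.7%. A pair of palindromes of 10 letters, not printed here, were in 9.38% and 3.12% of the matched genes (6 and 2 of 64). Among all genes with a promoter they were in 0.525% and 1.07%. A match of letters is a description and shows no binding.

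No ribosomal protein gene differed between cHET and control hearts beyond the spread of the libraries. Of the 81 genes tested, 0 passed limma at an adjusted p under 0.05, where 3 of all 13029 genes did (0.023%). Limma gave 0 of 81 an unadjusted p under 0.05, against 8.95% of all genes, and voom on the rebuilt reads called 0. In 0 of 81 did the groups fail to overlap, against 4.74% of all genes. The log2 fold change (cHET over control, of FPKM + 1) was below 0 for 76 of 81, against 47.9% of all genes, and its median was -0.22, against 0.0086 for all genes. The 95% interval of the log2 fold change included 0 for each of the 81. The median standard error was 0.226, against 0.119 for all genes, so that changes of this size were not resolved for these genes. In whole hearts, less RNA per cell cannot be told apart from fewer cells of a type.

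Both subunits had similar medians. The median log2 fold change was -0.23 for the 32 small subunit genes (31 below 0) and -0.22 for the 49 large subunit genes tested (45 below 0). Summed large subunit FPKM exceeded summed small subunit FPKM by 1.45 ± 0.0325 times in control hearts and 1.44 ± 0.0144 times in cHET hearts (SD, n = 4). Its range over all 8 libraries was 1.42 to 1.48, so the proportion of the subunits varied far less than the level of either.

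The share of all FPKM that fell on ribosomal protein genes varied more within the control group than between the groups. It was 7.07%, 8.21%, 5.66% and 5.21% in control 1 to 4. In cHET 1 to 4 it was 5.87%, 6.16%, 5.45% and 6.02%. All 4 cHET values thus lay between those of control 4 and control 1. The group values were 6.54 ± 1.37% and 5.87 ± 0.307% (SD, n = 4), a difference of -0.66 percentage points. Counted in reads, where longer genes weigh more, the shares were 4.13 ± 1.23% and 3.49 ± 0.244%.

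**Figure D2:**
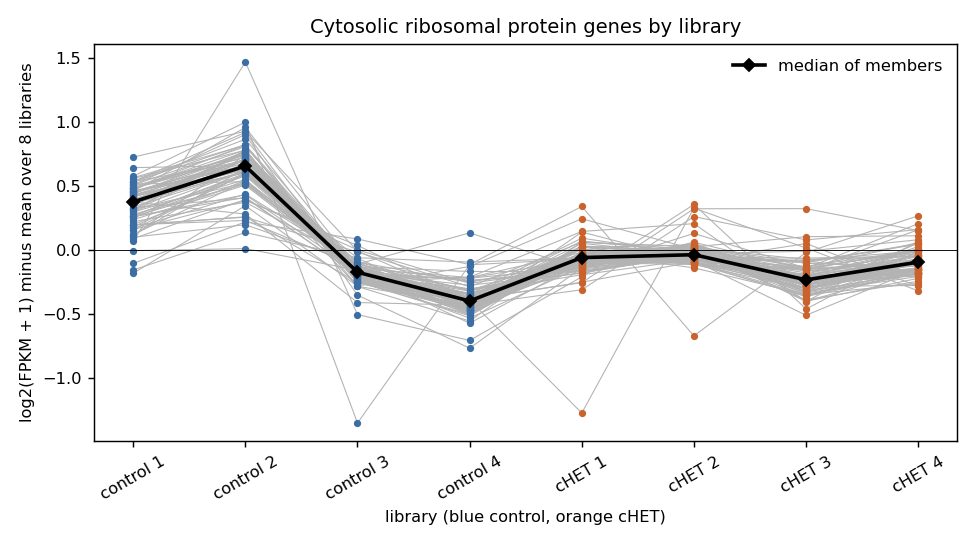
log2(FPKM + 1) of each of the 81 tested ribosomal protein genes in each library, minus its mean over the 8 libraries; grey lines join the values of a gene, and black diamonds are the median of the genes, from 0.66 in control 2 to -0.40 in control 4. Almost all genes follow the same profile, with the widest differences inside the control group.

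The highest and the lowest control heart were the same for most of the genes. Control 2 was the highest of the 8 libraries for 78 of 81 genes, against 22.5% of all genes tested. Control 4 was the lowest for 69 of 81, against 14.8%. Control 1 and control 2 were the highest pair for 73, against 16.3%, and all 4 cHET libraries lay between the lowest and the highest control for 71, against 30.6%. The median over genes of the deviation from the gene's own mean was 0.38, 0.66, -0.17 and -0.40 in control 1 to 4 and -0.060, -0.037, -0.23 and -0.095 in cHET 1 to 4, on the log2 scale. The same median over all genes tested ran from -0.014 to 0.017. Between control 2 and control 4 the level of a ribosomal protein gene differed by a median ratio of 2.13. That ratio was lowest for Rpl3l (1.05) and highest for Rps27a (4.58). The standard deviation was larger in control than in cHET for 78 of 81 genes, against 68.5% of all genes, with a median coefficient of variation of 33.9% in control and 7.69% in cHET.

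Among proteins with a named role beyond the bulk of the ribosome, the profile was the same. Rps6 (ENSMUSG00000028495, chromosome 4, 86854660 to 86857412, minus strand), the substrate of the S6 kinases, came to 395, 503, 315 and 292 FPKM in control, and 306, 333, 312 and 342 in cHET. Only control 1 and control 2 lay above the cHET range. Limma put its log2 fold change at -0.19 (SE 0.174) with an adjusted p of 0.735. Rpl5 and Rpl11, which bind the 5S RNA and the p53 regulator MDM2, averaged 153 ± 35.3 and 223 ± 84.9 FPKM over control hearts, and 134 ± 6.22 and 181 ± 17.9 over cHET hearts (SD, n = 4). Rps19, mutated in an inherited anaemia, had 112 ± 42.6 and 89.1 ± 9.76 FPKM, and Rpsa, also known as a laminin receptor, 387 ± 140 and 328 ± 15.2 FPKM. The stalk gene Rplp0 had 1216, 1232, 754 and 673 FPKM in control and 744, 808, 801 and 750 in cHET, and control 3 and control 4 straddled the lowest cHET value. Rplp2, the other stalk partner, had a smaller spread, with 200 ± 37.9 FPKM in control and 182 ± 10.4 in cHET. Limma gave each of these 6 genes besides Rps6 an adjusted p of 0.708 or more.

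The genes with the smallest p below 0 did not pass either. Rpl41 (ENSMUSG00000093674, chromosome 10, 128548114 to 128549305, minus strand), which encodes the shortest ribosomal protein, had 1057, 1496, 696 and 587 FPKM in control and 646, 721, 603 and 677 in cHET. Control 1 and control 2 were again above all cHET libraries and control 4 below them. Limma put its log2 fold change at -0.44 (SE 0.27) with an adjusted p of 0.648. Rpl39, a protein of the exit tunnel, was at -0.42 on the log2 scale (SE 0.267), with a limma adjusted p of 0.659. Rps21 (-0.37), Rpl22 (-0.24), Rpl3l (-0.16) and Rpl17 (-0.63) were the others of the 6, with adjusted p from 0.65 to 0.675 by limma. Without control 4, 16 of 81 genes had an unadjusted p under 0.05 by limma as lower, against 7.3% of all genes, led by Rpl41, Rps21 and Rpl39, and 0 passed after adjustment.

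Only 5 genes had a log2 fold change above 0. Rpl24 (ENSMUSG00000098274, chromosome 16, 55966275 to 55971435, plus strand), a large subunit protein, had 1.00, 1.02, 0.800 and 0.533 FPKM in control and 0.681, 1.51, 1.51 and 1.23 in cHET. The groups overlapped through cHET 1, and its difference of 0.27 on the log2 scale (SE 0.16; unadjusted p = 0.124 and adjusted p = 0.643 by limma) had the smallest p of all 81 genes. Rpl24 was also the only gene of the 81 with an unadjusted p under 0.05 by limma without cHET 1 (0.40, higher, against 5.48% of all genes) and with library weights (0.34, higher, against 7.19%). Its 9 to 31 reads per library are a small part of the reads of the gene and its copies together. Whether reads on a copy came from the gene or from the copy was not tested. Rps10 (0.12), Rpl7a (0.094), Rpl7l1 (0.088) and Rpl13a (0.0074) were the others, with adjusted p of 0.753 or more by limma. Rpl7a (ENSMUSG00000062647, chromosome 2, 26910764 to 26913318, plus strand) departed from the shared profile, at 105, 98.0, 60.2 and 59.4 FPKM in control and 64.6, 96.6, 85.0 and 89.9 in cHET. Control 3, control 4 and cHET 1 were low and the other 5 libraries high. Its copies held 27.0 to 45.1% of the reads of gene and copies together. Summed with them, Rpl7a had 273, 269, 184 and 171 CPM (reads scaled to the library total) in control and 214, 252, 206 and 224 in cHET, with control 1 and control 2 highest and control 4 lowest as for most of the genes, and its log2 fold change was 0.00047.

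Paralogues offer a comparison within a library, since a ratio of FPKM values cancels the library total. Rpl3l can replace Rpl3 in the ribosomes of striated muscle, and in these newborn hearts Rpl3 exceeded it by 35.2 ± 5.95 times in control hearts and 36.5 ± 2.99 times in cHET hearts (SD, n = 4). Rpl3l (ENSMUSG00000002500, chromosome 17, 24727820 to 24736143, plus strand) had 5.60, 6.07, 4.71 and 5.76 FPKM in control and 4.56, 5.74, 4.59 and 4.52 in cHET. Of the 4 cHET values, 3 thus lay below every control value, and cHET 2 lay among the control values. Limma put its log2 fold change at -0.16 (SE 0.10) with an adjusted p of 0.652, and without cHET 2 it was -0.23 (limma, unadjusted p = 0.0457, as lower, against 3.63% of all genes; adjusted p = 0.576). Unlike most of the genes, Rpl3l was about as high in control 4 as in control 1 and control 2.

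The other pairs also kept their ratio within the spread. Rpl22 exceeded Rpl22l1 by 4.22 ± 0.584 times in control and 3.85 ± 0.128 times in cHET. Rps27 exceeded Rps27l, a target of p53, by 1.73 ± 0.648 and 1.85 ± 0.309 times, and control 3 alone had less Rps27 than Rps27l, at a ratio of 0.759. In control 3 most reads of Rps27 and its copies together were assigned to the copies, as given further on, and the ratio leaves these out. Rpl7 exceeded Rpl7l1, a nucleolar relative, by 18.3, 17.1, 10.9 and 10.3 times in control and by 11.0, 11.6, 9.34 and 9.77 times in cHET. Control 1 and control 2 were high in this ratio too, while Rpl7l1 stood at 17.7 to 21.9 FPKM in all libraries. Rpl39 had 322 to 1404 times the FPKM of Rpl39l, and Rpl36a 173 to 897 times that of Rpl36al, ratios that rest on 2 to 18 reads of the paralogue. Rpl36al also had 37.9 to 71.4% of the reads of gene and copies together on copies, and it overlaps a second gene model, as given further on. Rps4l, whose row is annotated as a processed pseudogene and is no member, had 81.9 ± 12.1 FPKM in control and 90.4 ± 13.3 in cHET, next to 452 ± 135 and 359 ± 19.2 for Rps4x.

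**Figure D3:**
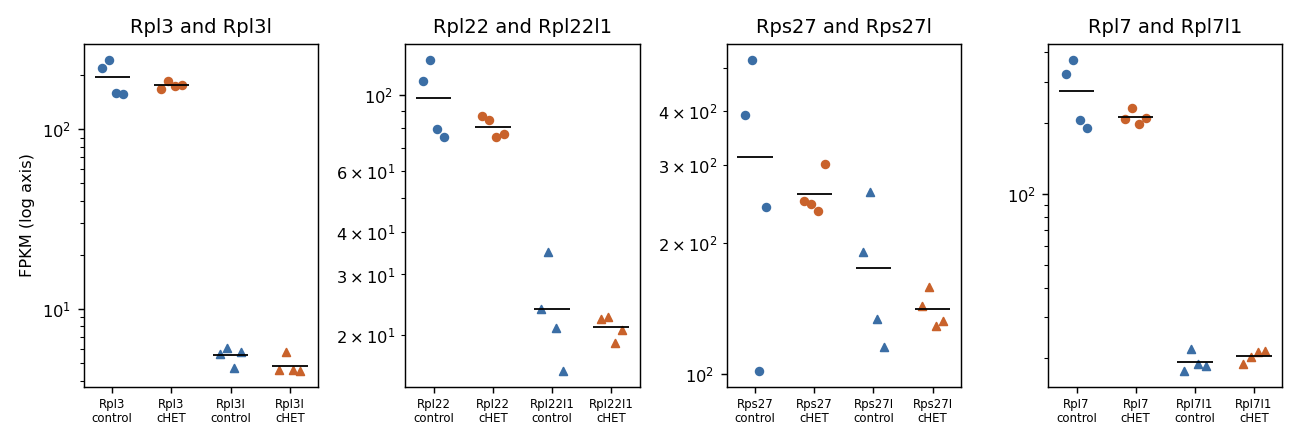
FPKM (log axis, a separate scale per panel) of 4 paralogue pairs in each library, with the common gene as circles and its paralogue as triangles, control in blue and cHET in orange; horizontal lines are means (n = 4). Rpl3l and Rpl7l1 spread less within control than Rpl3 and Rpl7, and Rps27 has 1 low control library, in which most reads of the gene and its copies together were assigned to copies.

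Ribosomal protein genes have many processed copies in the genome, and reads of a copy cannot always be told from those of the gene. A search of each coding sequence against the GENCODE M21 transcripts, at 90% identity over 80% of its length or more, found 928 copies of 74 genes, of which 902 are processed pseudogenes and 178 had a mean of at least 1 FPKM. Copies held 7.29% of all reads of the genes and copies together, over 10% for 22 genes and over 50% for 4 (Rps10, Rpl24, Rpl17 and Rpl36al). How reads that match several places were counted is not given in the sources used here.

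Some copies with many reads differ from the gene by few bases or none, as the following stretches of coding sequence show for the 3 genes described next. Positions count from the A of the start codon, the gene's base comes first in each substitution, and capitals mark the bases that differ. Rpl26 (chr11:68901583-68906989, plus strand) and its processed pseudogene Gm15772 (chr5:3236431-3236868, plus strand) differ over 435 bases by C177T and T288C, shown at positions 157 to 197 and 268 to 308. Rps10 (chr17:27630418-27636669, minus strand) and Rps10-ps2 (chr16:20822145-20822640, minus strand) differ over positions 1 to 456 by T393C, T408C, C437G and A438G, the first pair shown at 373 to 413. Rps27 (chr3:90212522-90213651, minus strand) and the protein-coding Rps27rt (chr9:114982366-114982739, minus strand) are identical over all 252 bases, of which 107 to 147 are shown.
Rpl26: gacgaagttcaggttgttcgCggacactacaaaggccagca
Gm15772: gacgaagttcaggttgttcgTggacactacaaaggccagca
Rpl26: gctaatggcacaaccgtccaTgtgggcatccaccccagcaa
Gm15772: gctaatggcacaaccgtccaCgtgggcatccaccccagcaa
Rps10: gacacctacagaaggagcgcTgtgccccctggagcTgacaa
Rps10-ps2: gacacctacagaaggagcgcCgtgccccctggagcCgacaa
Rps27: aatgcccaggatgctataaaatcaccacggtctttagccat
Rps27rt: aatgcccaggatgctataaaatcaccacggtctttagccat

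For Rpl26, a protein near the tunnel exit, reads were assigned about equally to the gene and to Gm15772 in 3 libraries, and mostly to the gene in the other 5. The copies held 52.3%, 51.2%, 4.84% and 4.30% of the reads of gene and copies together in control 1 to 4 and 4.08%, 53.5%, 4.66% and 4.19% in cHET 1 to 4. Gm15772 itself stood at 734 and 883 FPKM in control 1 and control 2 and at 520 in cHET 2, and at 27.5 to 36.2 FPKM in the others. These are the 3 libraries with the highest Ucp1, and the relation of the copy to that marker was not tested. Rpl26 alone was at 205, 257, 235 and 204 FPKM in control and 280, 138, 218 and 266 in cHET, so that cHET 2 was its lowest library. Summed with its copies, it had 601, 738, 363 and 319 CPM (reads scaled to the library total) in control and 430, 445, 328 and 405 in cHET, with control 1 and control 2 highest and control 4 lowest. Its log2 fold change was -0.042 alone and -0.28 summed with its copies (limma, adjusted p = 0.956 and 0.745).

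Rps27, a zinc finger protein of the small subunit, had 391, 524, 102 and 241 FPKM in control and 249, 244, 237 and 302 in cHET. Its low value in control 3 went with 69.0% of the reads of gene and copies together on copies, against 11.6 to 32.8% in the other libraries. Rps27rt stood at 628 FPKM in control 3 and at 107 to 337 in the others. Summed with copies, Rps27 had 348 CPM in control 3, between 302 in control 4 and 504 in control 1. Its log2 fold change was -0.053 alone and -0.33 summed with its copies (limma, adjusted p = 0.973 and 0.685). Rpl17 (ENSMUSG00000062328, chromosome 18, 75000477 to 75003381, plus strand), at the tunnel exit, had 435, 501, 261 and 200 FPKM in control and 108, 330, 266 and 210 in cHET. In cHET 1 its copies held 81.9% of the reads of gene and copies together, against 44.8 to 63.1% elsewhere, and Rpl17-ps10 was highest there at 406 FPKM. The log2 fold change of Rpl17, the lowest of the 81 genes, was -0.63 (SE 0.387; limma, adjusted p = 0.65), and it was -0.24 with copies summed and -0.31 without cHET 1.

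For other genes the share of reads assigned to copies was steadier. It was 33.5 to 35.9% for Rpl23, mostly on Gm9794 (chromosome 6), which differs from it by C253T alone. Rps10, a small subunit protein, had 95.8 to 98.3% of the reads of gene and copies together on copies and stood at 1.21 to 2.41 FPKM, whereas Rps10-ps2 stood at 198 to 367 FPKM. Summed with its copies Rps10 had a log2 fold change of -0.23, against 0.12 alone. Rpl24 had 82.8 to 93.0% on copies, but gene and copies together came to only 4.67 to 11.5 CPM, against 111 to 198 CPM for Rps10. Rpl13a, Rps10, Rpl24 and Rpl36al also overlap, on the same strand, a second gene model that holds most of the same coding sequence (Gm45713, RPS10-NUDT3, Gm28037 and Gm49383), and each of these is listed at 0 in all libraries. The values of these 4 genes are uncertain for that reason.

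**Figure D4:**
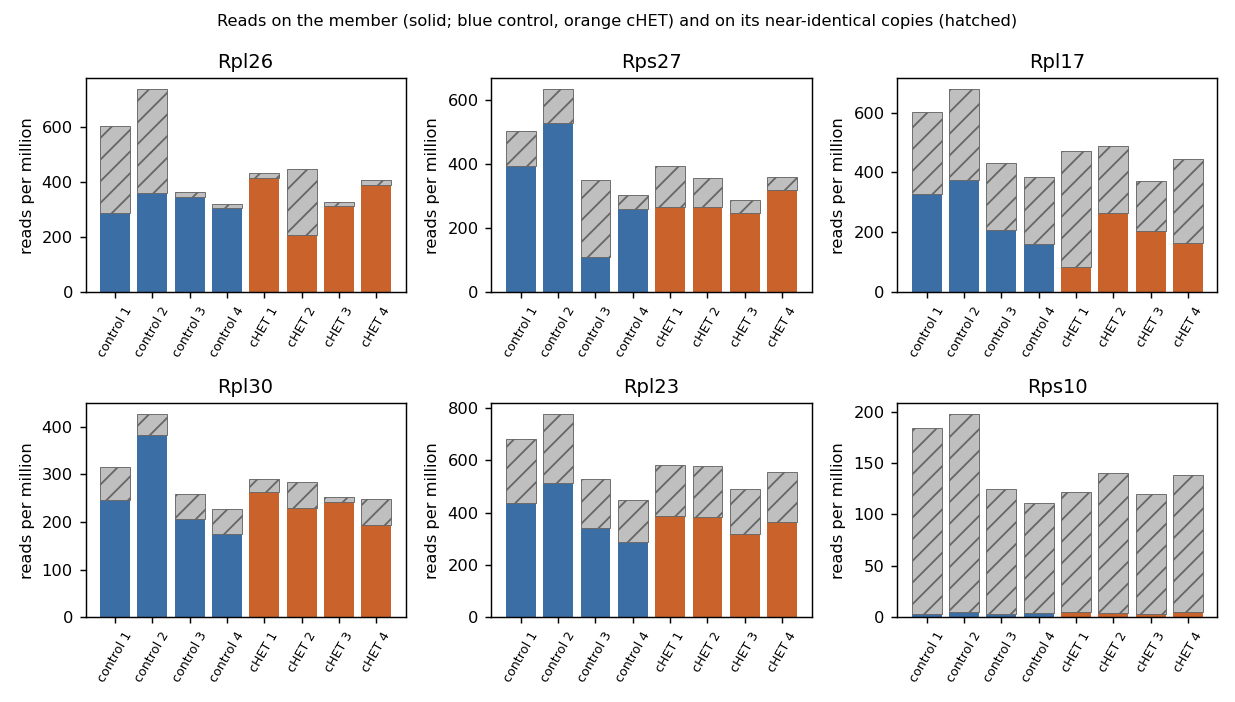
CPM (reads scaled to the library total) assigned to 6 ribosomal protein genes (solid, blue control, orange cHET) and to their near-identical copies (hatched grey) in each library. For Rpl26 the hatched part is 51.2 to 53.5% of the bar in control 1, control 2 and cHET 2 and under 5% in the others, and the whole bars are highest in control 1 and control 2 for all 6 genes.

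The shared profile was also there when reads were not divided between genes and copies. With the reads of each gene and its copies summed, a setting chosen after the data were seen, 82 genes could be tested. Control 2 was the highest library for 81 of 82 and control 4 the lowest for 73. The log2 fold change was below 0 for 78 of 82 (47.5% of all genes in that fit), with a median of -0.23. Limma called 0 of 82, against 0.0311% of all genes, and gave 0 an unadjusted p under 0.05, against 3.98% of all genes as lower and 5.12% as higher.

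Short genes of other kinds moved in the same libraries by smaller amounts. The ribosomal protein genes are short, at a median of 1737 bases against 4368 for tested protein-coding genes. The 292 other protein-coding genes under 1000 bases had median deviations of 0.23, 0.41, -0.086 and -0.27 in control 1 to 4 on the log2 scale. The 12 ribosomal protein genes of that length had 0.47, 0.71, -0.18 and -0.43. Among genes of 4000 bases and over, 6252 others had -0.063, -0.089, 0.013 and 0.052, the opposite order, while the 6 ribosomal protein genes of that length had 0.36, 0.69, -0.15 and -0.44. The part of gene length in the profile was not tested beyond these values.

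**Figure D5:**
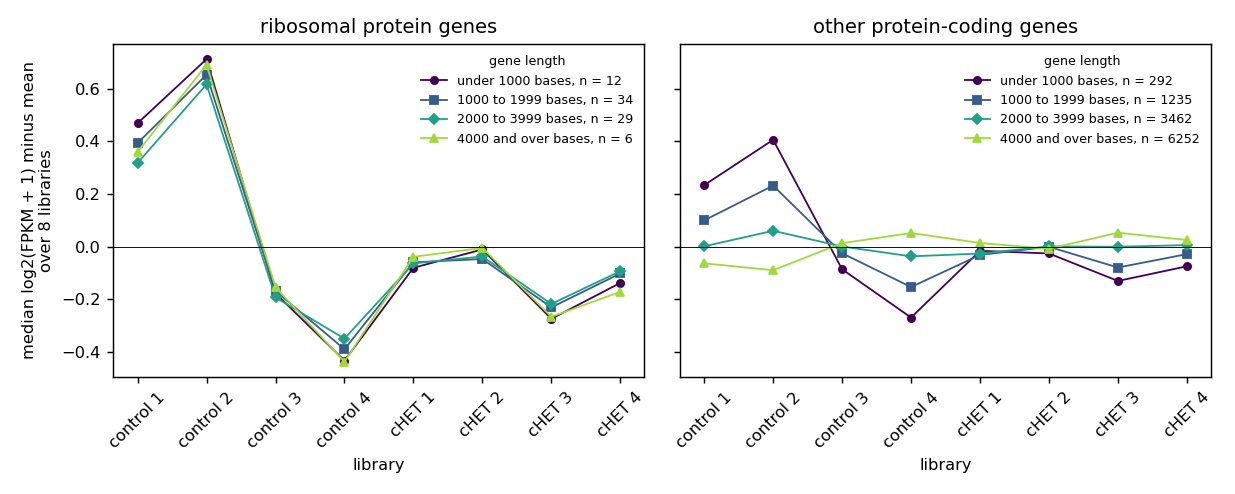
Median deviation of log2(FPKM + 1) from the gene's mean over 8 libraries, by gene length, for ribosomal protein genes (left) and other protein-coding genes (right). The ribosomal protein genes keep one profile at every length, while other genes follow it under 2000 bases and reverse it at 4000 bases and over.

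Markers of other cell types differed between the same libraries. The 5 brown fat markers summed to 61.8, 56.2, 24.6 and 28.6 FPKM in control 1 to 4 and 29.1, 42.6, 29.0 and 32.8 in cHET 1 to 4. Adipoq and Cfd were at 0 in control 3 and cHET 3, Ucp1 in cHET 3, and Cfd also in control 4 and cHET 4, and Cidea was above 24 FPKM in every library. In cHET 2, whose brown fat sum was the third highest, the ribosomal protein genes had a median deviation of -0.037. The 6 red cell markers summed to 1024, 8414, 1624 and 2757 FPKM in control and 1597 to 2541 in cHET, so control 1 was lowest by this list and control 2 highest. The 6 macrophage markers summed to 73.9 to 158 FPKM in control and 56.8 to 90.4 in cHET, highest in control 2, and the 4 neutrophil markers to 8.24 to 71.8 and 9.03 to 15.8. All 6 macrophage markers had a log2 fold change below 0 (median -0.46). Limma gave 3 of them an unadjusted p under 0.05 as lower, against 3.92% of all genes. The 6 genes of dividing cells summed to 66.9 to 103 FPKM in control and 113 to 172 in cHET. Their log2 fold changes were all above 0 (median 0.61). For 5 of the 6, the lowest cHET library lay above the highest control library, against 2.74% of all genes. Each of the 6 had an unadjusted p under 0.05 by limma as higher (5.03% of all genes), and 0 passed after adjustment. The share of FPKM on genes of the mitochondrial genome was 26.8%, 23.2%, 20.6% and 19.5% in control 1 to 4 and 17.9 to 23.7% in cHET, so that control 1 and control 2 lay above control 3 and control 4 here too. The 5 epicardial and mesothelial markers summed to 40.5, 72.9, 34.2 and 37.5 FPKM in control and 22.7, 32.1, 14.8 and 27.9 in cHET. This list was highest in control 2, its sums did not overlap between the groups, and all 5 of its genes had a log2 fold change below 0 (median -0.84). Limma gave 4 of the 5 an unadjusted p under 0.05 as lower, against 3.92% of all genes, and called 0. The 6 endothelial markers summed to 127 to 185 FPKM in control, with control 1 and control 2 lowest, and 151 to 166 in cHET. Their log2 fold changes went both ways, below 0 for 4 and above 0 for 2, from -0.45 to 0.39. Limma gave 3 of the 6 an unadjusted p under 0.05 as lower, against 3.92% of all genes, and 0 as higher. The sums of the fibroblast, smooth muscle and atrial lists overlapped between the groups. The part of these differences in the ribosomal protein values was not tested.

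The direction of the comparison between the groups depended on control 1 and control 2. Without both, the log2 fold change was above 0 for 78 of 81 genes, against 50.6% of all genes, and its median was 0.18, against 0.0022 for all genes. Limma then gave 7 of 81 an unadjusted p under 0.05 as higher, against 5.26% of all genes, and 0 as lower, against 3.28%, and called 0 after adjustment, against 0.0154%. The 7, named after their values were seen, were Rpl21 (0.49), Rpl7a (0.47), Rpsa (0.27), Rpl38 (0.35), Rpl13 (0.24), Rps15a (0.25) and Rps27a (0.53). With limma library weights, which count control 2 at 0.298 and control 3 at 2.9, the median was 0.0034, with 43 genes above and 38 below 0. Leaving out a single library moved the median from -0.036 (without control 2) to -0.39 (without control 4), with -0.14 without control 1. Under the other scalings tried the median lay between -0.12 and -0.23. The share of FPKM on ribosomal protein genes was 0.437 percentage points higher in cHET without control 1 and control 2.

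Rps27a, which makes its protein as a fusion with ubiquitin, had the highest ratio of control 2 to control 4. It came to 116, 308, 77.7 and 67.4 FPKM in control, and to 95.5, 142, 80.1 and 110 in cHET. Control 2 was far above the other libraries and cHET 2 next. Limma put its log2 fold change at -0.16 (SE 0.431) with an adjusted p of 0.909.

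Fau and Rack1, which lie outside the rule, had log2 fold changes below 0. Fau, a fusion with a ubiquitin-like protein, had 597, 720, 439 and 348 FPKM in control and 426, 430, 360 and 375 in cHET, with control 1 and control 2 high as for the other genes (log2 fold change -0.35; limma, adjusted p = 0.65). Rack1, a scaffold on the small subunit, had control and cHET means of 138 and 118 FPKM (-0.19; limma, adjusted p = 0.74).

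Most genes that act in the assembly of ribosomes had a log2 fold change above 0. Of 48 ribosome assembly genes tested, 40 lay above 0, against 6784 of all 13029 genes. Their median log2 fold change was 0.085, against 0.0086 for all genes. Limma gave 3 of them an unadjusted p under 0.05 as higher (5.03% of all genes) and 0 as lower (3.92%), and called 0. Rrp12, which acts in export of both subunits, had 3.82 ± 1.25 FPKM in control and 5.80 ± 1.17 in cHET (limma, adjusted p = 0.486). Nop58, of the box C/D particles, had 5.47 ± 0.663 and 6.77 ± 0.779 FPKM (limma, adjusted p = 0.519). Nolc1, a nucleolar phosphoprotein named after its value was seen, was the third with an unadjusted p under 0.05 (log2 fold change 0.28; limma, adjusted p = 0.547). The short gene Nop10 had 53.5 ± 15.9 and 47.8 ± 1.52 (adjusted p = 0.846 by limma; SD, n = 4).

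Of 16 genes of RNA polymerase I, which transcribes ribosomal RNA, and of its factors, 10 lay above 0 (median 0.036). Among all 13029 genes, 6784 did. Polr1e, a subunit of that enzyme, had 9.35, 10.7, 10.5 and 11.7 FPKM in control and 13.5, 13.0, 13.7 and 13.6 in cHET. Every cHET value lay above every control value, as in 2.74% of all genes, but the log2 fold change of 0.33 did not pass after adjustment (SE 0.0803; limma, unadjusted p = 0.00268, adjusted p = 0.337). Polr1b had 0.17 and Polr2l, shared with other polymerases, 0.024 (limma, adjusted p = 0.617 and 0.96).

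Other translation genes had medians near 0. For all genes the median was 0.0086, with 6784 of 13029 above 0. Of 35 initiation factors 20 lay above 0 (median 0.012), with Eif3j1 at 0.21, Eif3f at -0.15 and Eif5a at 0.053. Of 7 elongation factors 5 lay above 0 (median 0.057). Eef1e1, a scaffold of tRNA synthetases, averaged 5.01 ± 1.18 FPKM over control and 6.23 ± 0.252 over cHET hearts (SD, n = 4; limma, unadjusted p = 0.0461, adjusted p = 0.55), Eef1a2 had 0.27 and Eef1a1 -0.095. Of 8 other mRNAs with a terminal oligopyrimidine motif 5 lay above 0 (median 0.018). Of these mRNAs, Tpt1 had 978, 1076, 762 and 687 FPKM in control and 746 to 837 in cHET, the profile of the ribosomal protein genes, whereas Naca (119 ± 2.97 and 133 ± 16.2 FPKM) and Nap1l1 (25.8 ± 2.22 and 28.1 ± 2.7 FPKM) did not show it. Of 13 genes of mTORC1 and its effectors 10 lay above 0 (median 0.069), with Larp1 at 0.19, Tsc1 at 0.13 and Eif4ebp1 at -0.031. Limma called 0 genes of these lists, and 1 of them besides Polr1e and the 3 assembly genes, Eef1e1, had an unadjusted p under 0.05.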

How the data were processed

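RNA-seq of 8 whole hearts was read from 1 deposited table of FPKM values per gene and library, made by the authors with the gene length given in the table. The tools named in the submitters' processing notes are HISAT2 2.0.5, DESeq2 1.20.0 and featureCounts 1.5.0-p3, and the build named is mm9. Their roles, and how strand and multiply matching reads were counted, are not given in the sources used here. The coordinates equal those of GENCODE M21 (GRCm38) for 98.3% of 54495 shared genes and for 82 of the 84 members, and are given as in the table, on GRCm38. Libraries held poly-T selected mRNA, with fragments near 370 to 420 bp preferred, per the labels' protocols.

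FPKM times length was a whole multiple of 1 step per library for 100% of values (within 0.05 reads), which gave rebuilt reads. No library pair of a group agreed within sampling noise (chi-square per gene 13.0 or more). Tests used log2(FPKM + 1), which understates changes of low genes, for genes with a mean of at least 1 FPKM, in R 4.3.3 with limma 3.58.1 (two-sided, no covariate, moderated with a variance trend and robustly) and Benjamini-Hochberg adjustment over 13029 genes at 0.05. The fit was tested on simulated data. The members, the gene lists and the tests were chosen with earlier results of these data known. Copies were found with blastn 2.17.0, and hits in longer genes of other kinds (18) were left out. The copy sums, the length classes, the promoter motifs, Rps27a, Rpl26, Rpl23 and the sequences shown were chosen after the data were seen.

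Named are paralogue pairs, the stalk genes, Rpsa, Rps6, Rps19, Rpl5 and Rpl11, the 5 highest and 5 lowest members, the 6 with the smallest p in each direction, and per related list the 2 genes with the smallest p and the most abundant. Of the 84 members, 48 overlap another gene.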

Additional observations from a re-analysis of the deposited data

Results flagged for a closer look

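Each group of 4 libraries was examined for a highest or lowest value set apart from the others by Dixon's criterion at 95%, over 168 groups. Chance marks about 1 in 20 groups, and 5 were marked. In cHET 3, Rpl29 was low at 251.88 FPKM (the other cHET libraries 273 to 277), Rpl27a at 149.51 (179 to 184), Rps25 at 148.59 (174 to 177) and Rps24 at 99.489 (115 to 116). In cHET 2, Rpl3l was high at 5.7401 FPKM (others 4.52 to 4.59).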

How the results depend on the processing

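Under the 24 other settings 0 ribosomal protein genes were called, and the smallest adjusted p of a named one was 0.295 (limma). Of 1240 single values for 52 named genes, 1171 kept their direction and side of the threshold and 69 changed sign, none of them a called value; the cause was not tested. The count of ribosomal protein genes with an unadjusted p under 0.05 was 1 with library weights (Rpl24), 7 without control 1 and control 2, and 0 to 16 with 1 library left out. Their median log2 fold change was 0.18 without control 1 and control 2 and -0.39 to -0.036 with 1 library left out, and their share of FPKM was 0.437 points higher and -1.11 to -0.106 points different in the same settings. Deviations of libraries with the same replicate number correlated at 0.286, 0.266, 0.0521 and 0.0572, and the 12 other pairs lay between -0.272 and 0.344. Control 4, cHET 3 and cHET 4 did not correlate best with their own number, and 2 of the 4 values were not over 0.1, so the numbers were not taken to pair the samples. A replicate block called 0 of these genes, and 1 gene in all against 3, with the median at -0.22. With sex as a covariate, taken from Xist and Ddx3y, the median was also -0.22.

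Without control 1 and control 2 the log2 fold change was above 0 for Rplp0 (0.12), Rpsa (0.27), Rplp1 (0.18), Rpl10 (0.15), Rps4x (0.086), Rpl7 (0.097), Rpl3 (0.15), Rpl5 (0.13), Rps6 (0.091), Rpl11 (0.21), Rps19 (0.18), Rplp2 (0.075), Rpl39 (0.076), Rps27 (0.71), Rpl22 (0.060), Rpl36a (0.19), Rps27l (0.18), Rpl22l1 (0.20), Rpl36 (0.23), Rps15 (0.20), Rps29 (0.15), Rpl41 (0.047), Rps21 (0.067), Tpt1 (0.093), Fau (0.020), Nop10 (0.23) and Eif4ebp1 (0.11). With library weights it was above 0 for Rpsa (0.083), Rpl3 (0.063), Rpl5 (0.032), Rpl11 (0.0056), Rps27 (0.75), Rps27l (0.0026), Rpl22l1 (0.024), Rpl36 (0.059), Nop10 (0.075) and Eif4ebp1 (0.039). Quantile normalization gave Rplp1 0.082, Rps27 0.065, Rpl36 0.15 and Eef1a1 0.26. TPM scaling gave Rps27 0.046, Eef1a1 0.0038 and Eif4ebp1 0.067, and scaling without mtDNA-encoded genes gave Rps27 0.011 and Eif4ebp1 0.033. Summed with copies, Rps10 had -0.23 and Rpl13a -0.0022. With 1 library left out the range was -0.51 to 0.27 for Rps27, -0.35 to 0.025 for Rpsa, -0.29 to 0.079 for Rpl22l1, -0.29 to 0.034 for Rpl36, -0.22 to 0.0016 for Rplp2, -0.077 to 0.14 for Rpl13a, -0.035 to 0.23 for Rpl7a, -0.27 to 0.048 for Nop10, -0.087 to 0.050 for Eif4ebp1, -0.0074 to 0.14 for Eif5a, -0.078 to 0.16 for Polr2l and -0.30 to 0.041 for Mrps5. Of the count methods, voom was run on the rebuilt reads, and DESeq2 and edgeR were not run.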
